A study of Mus musculus with 6 samples.

Results

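The proteasome genes described here are the protein-coding mouse genes whose symbols begin with Psma, Psmb, Psmc, Psmd, Psme, Psmf or Psmg followed by a digit. The rule took 51 of 21887 protein-coding genes. A gene was given a peak in a library when at least 1 bp of a called peak lay within 1000 bp of either gene end, with gene ends from the RefSeq annotation of GRCm38.p6, the assembly behind the mm10 build of the peak lists. By role, the 51 genes fell into 8 alpha and 11 beta genes of the core particle, 6 ATPase and 14 non-ATPase genes of the regulatory particle, 5 activators, 1 inhibitor, 4 assembly chaperones and 2 genes that the pattern caught although their products are no subunits. These 2 are Psmc3ip, a factor of meiotic recombination, and Psme3ip1, a protein that binds the activator Psme3.

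The assay was CUT&Tag with an antibody against Arid3a, a DNA-binding protein of the AT-rich interaction domain family. In CUT&Tag an antibody brings a transposase to chromatin, and the fragments it cuts are sequenced. The cells were mouse primary vascular smooth muscle cells, the contractile cells of the vessel wall. There were 3 libraries of cells given an siRNA against Arid3a, each with its own siRNA number, and 3 of cells given a negative control siRNA (NC). Angiotensin II served in the study to model aortic aneurysm in these cells, but the exposure of each library is not in the labels, and nothing in them ties the libraries to separate cultures. The p-values below therefore reflect library-to-library spread alone, and that spread may be technical. The labels do not say whether the siRNA numbers stand for different siRNAs. If they do, the spread among siRNA-labelled libraries also holds differences between siRNAs. The peaks in each of the 6 lists are named after the opposite group. The groups follow the sample labels here, so the libraries are called siRNA-labelled and NC-labelled, and every direction would turn round if the peak names were right.

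The proteasome is the protease that degrades proteins tagged with ubiquitin. Its barrel-shaped core is built of alpha rings, which gate the entrance, around beta rings, which hold the cutting sites. A regulatory particle binds tagged proteins, removes the tag, and unfolds them with a ring of ATPases. Interferon signals exchange the cutting subunits for the immunoproteasome forms Psmb8, Psmb9 and Psmb10 and raise the activators Psme1 and Psme2, which changes the peptides made for display to T cells. In smooth muscle the proteasome is known for turning over regulators of contraction, growth and inflammation. Peaks near a gene are not its expression, and the peaks were not set against an antibody-free library here, so none is shown to be a binding site of Arid3a.

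The promoter windows of 8 genes on which the results turn are printed first. They run from 250 bases before to 50 bases after the tabulated transcription start and come from RefSeq (GRCm38.p6), which had such a window for 43 of the 51 genes. Each is written 5′ to 3′ on the strand of its gene, and the capitals mark every match to the motifs searched. Psma3 is shown because its start held the strongest peak of any proteasome gene (chr12:70974373-70974672, plus strand). Psme2 had the strongest gene-end peak (chr14:55591052-55591351, minus strand), and Psmb9 the strongest of the core particle (chr17:34187281-34187580, minus strand). Psmb5, the standard counterpart of the immunoproteasome subunit Psmb8, was close behind Psmb9 (chr14:54617946-54618245, minus strand). Psmd9 had the highest ratio between the groups (chr5:123227940-123228239, plus strand), and Psmd12 is a strong lid gene whose groups did not overlap (chr11:107479278-107479577, plus strand). Psmb4 (chr3:94886909-94887208, minus strand) and Psmb8 (chr17:34197945-34198244, plus strand) are shown because most libraries had no peak at their start.
Psma3: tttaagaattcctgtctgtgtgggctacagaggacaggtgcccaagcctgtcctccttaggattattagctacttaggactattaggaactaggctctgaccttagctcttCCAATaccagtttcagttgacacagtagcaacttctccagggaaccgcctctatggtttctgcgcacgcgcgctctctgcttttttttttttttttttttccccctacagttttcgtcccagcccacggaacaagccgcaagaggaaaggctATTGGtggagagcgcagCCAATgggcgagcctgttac
Psme2: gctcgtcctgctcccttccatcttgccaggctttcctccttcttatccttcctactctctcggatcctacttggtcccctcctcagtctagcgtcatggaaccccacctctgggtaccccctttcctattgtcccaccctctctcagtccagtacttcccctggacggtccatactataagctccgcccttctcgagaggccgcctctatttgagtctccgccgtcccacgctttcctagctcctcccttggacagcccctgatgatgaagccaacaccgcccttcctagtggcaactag
Psmb9: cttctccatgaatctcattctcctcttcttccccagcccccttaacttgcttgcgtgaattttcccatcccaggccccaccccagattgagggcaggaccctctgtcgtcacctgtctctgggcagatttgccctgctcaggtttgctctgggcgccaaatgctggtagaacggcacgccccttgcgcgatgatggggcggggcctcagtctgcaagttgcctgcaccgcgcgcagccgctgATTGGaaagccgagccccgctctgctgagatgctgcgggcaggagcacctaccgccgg
Psmb5: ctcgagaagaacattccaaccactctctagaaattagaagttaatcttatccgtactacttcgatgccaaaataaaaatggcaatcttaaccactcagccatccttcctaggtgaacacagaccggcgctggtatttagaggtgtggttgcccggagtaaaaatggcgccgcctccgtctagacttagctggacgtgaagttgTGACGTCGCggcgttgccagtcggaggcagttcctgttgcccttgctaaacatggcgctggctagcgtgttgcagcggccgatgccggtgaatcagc
Psmd12: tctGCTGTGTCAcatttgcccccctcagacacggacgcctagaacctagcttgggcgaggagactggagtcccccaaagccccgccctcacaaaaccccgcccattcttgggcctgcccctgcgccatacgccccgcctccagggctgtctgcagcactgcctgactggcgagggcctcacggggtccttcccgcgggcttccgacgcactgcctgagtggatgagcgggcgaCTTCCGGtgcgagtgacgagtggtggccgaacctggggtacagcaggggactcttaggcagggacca
Psmd9: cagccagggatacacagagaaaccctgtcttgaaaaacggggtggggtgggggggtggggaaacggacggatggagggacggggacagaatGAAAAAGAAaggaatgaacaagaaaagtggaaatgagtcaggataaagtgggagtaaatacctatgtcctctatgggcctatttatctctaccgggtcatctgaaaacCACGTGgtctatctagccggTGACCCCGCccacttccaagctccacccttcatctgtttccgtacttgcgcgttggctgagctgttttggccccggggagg
Psmb4: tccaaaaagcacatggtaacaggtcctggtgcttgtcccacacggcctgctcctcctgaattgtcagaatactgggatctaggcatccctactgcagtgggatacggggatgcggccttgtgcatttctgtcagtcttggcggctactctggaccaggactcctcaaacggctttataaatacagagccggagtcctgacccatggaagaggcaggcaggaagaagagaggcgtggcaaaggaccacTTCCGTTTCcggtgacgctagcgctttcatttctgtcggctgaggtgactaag
Psmb8: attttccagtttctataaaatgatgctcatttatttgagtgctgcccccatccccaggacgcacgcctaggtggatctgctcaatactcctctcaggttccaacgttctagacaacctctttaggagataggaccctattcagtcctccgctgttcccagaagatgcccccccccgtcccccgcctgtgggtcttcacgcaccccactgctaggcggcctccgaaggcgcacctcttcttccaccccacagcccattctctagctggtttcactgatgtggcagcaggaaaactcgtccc

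Of the 51 genes, 41 had a gene-end peak in all 6 libraries, or 80.4%, against 9638 of all 21887 protein-coding genes, or 44.0%. By library, 42, 46 and 44 of the 51 had a peak in siRNA-labelled libraries 1 to 3, against 45, 45 and 45 in NC-labelled libraries 1 to 3. None had a peak in the 3 siRNA-labelled libraries and no NC-labelled library, where the share over all genes was 0.0914%. None had a peak in the 3 NC-labelled libraries and no siRNA-labelled library, where that share was 0.169%. Another 6 genes had a peak in 1 to 5 libraries, and Psma6, Psma8, Psme2b and Psmf1 had no gene-end peak in any. All 6 ATPase and all 14 non-ATPase genes of the regulatory particle had a peak in every library, as had 6 of 8 alpha, 6 of 11 beta and 4 of 5 activator genes, 3 of 4 chaperones and both genes that are no subunits.

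Peak strength is given as the authors' fold enrichment at the summit over local background and as their −log10 q, which describe and rank peaks within 1 list. The mean percentile of a gene's −log10 q among all peaks of its library had a median of 80.5 over the 41 genes with a peak in all 6 libraries, with quartiles of 72.0 and 89.5. Over all 9638 genes with such a peak the median was 79.3, with quartiles of 62.4 and 91.1. The proteasome genes were thus present more often than genes in general, at a strength close to that of other genes with a peak, and 22 of the 41 lay above the median of all. The median peak width of the proteasome genes was 676, 602 and 651 bp in siRNA-labelled libraries 1 to 3, against 741, 739 and 697 bp in NC-labelled libraries 1 to 3. Over all peaks of a list, at gene ends or not, it was 450, 403 and 425 bp in siRNA-labelled libraries. In NC-labelled libraries it was 509, 493 and 480 bp. These sets are unlike, since each proteasome gene gave only its strongest gene-end peak. The width of such peaks over all genes was not computed.

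**Figure D1:**
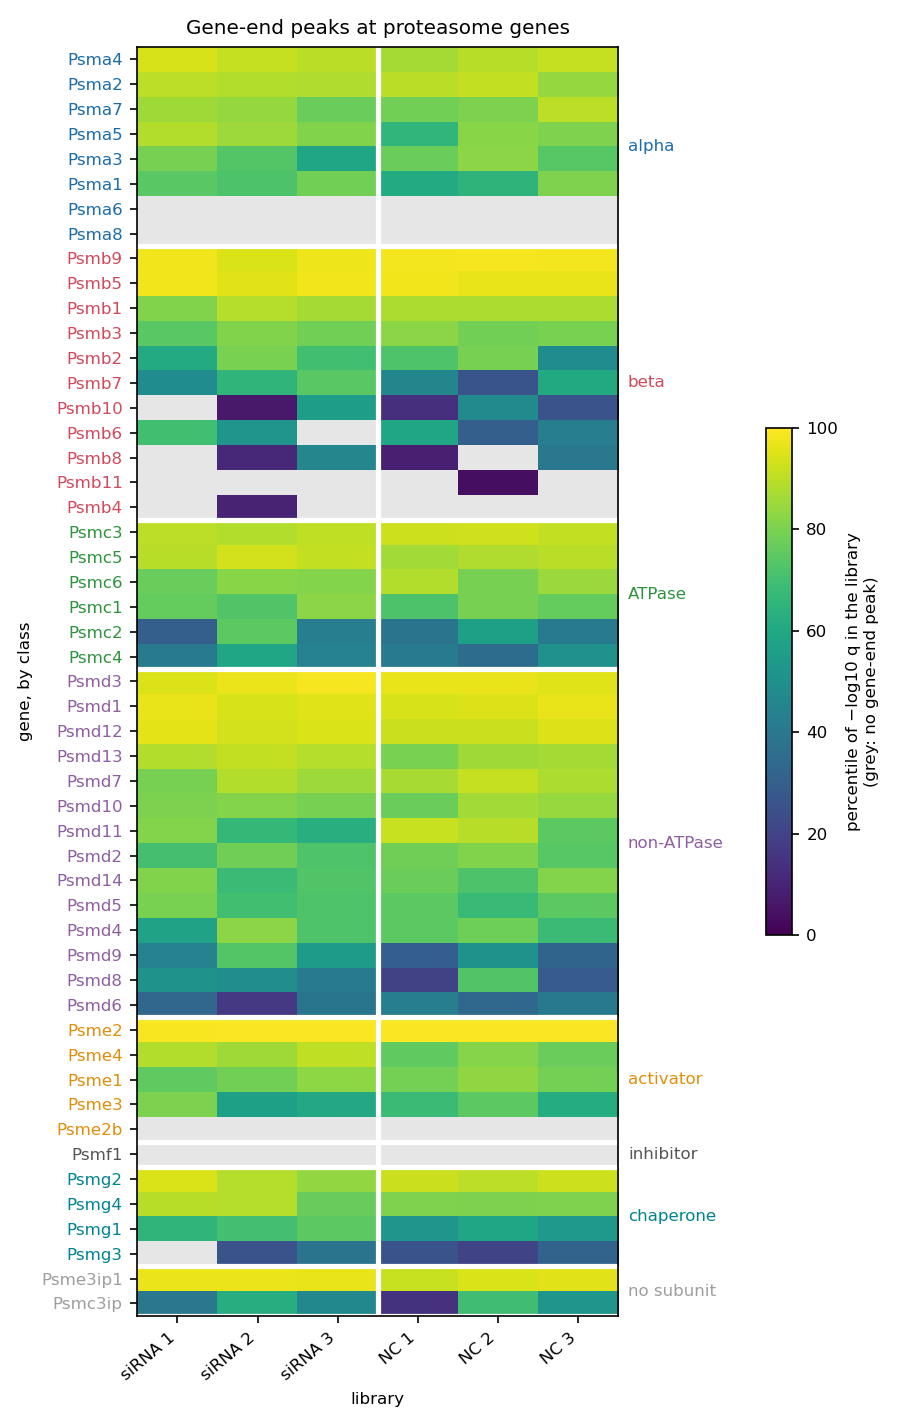
Percentile of the −log10 q of each gene's strongest gene-end peak among all peaks of the same library (colour), for the 51 genes (down the page, by class) in the 3 siRNA-labelled and 3 NC-labelled libraries (across); grey marks no gene-end peak. Every ATPase and non-ATPase gene is filled in all 6 libraries, while the beta genes range from a mean percentile of 97.4 at Psmb9 to genes with no peak in most libraries.

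The peaks sat at the 5′ ends of the genes. For the 34 genes with a tabulated start and a gene-end peak in all 6 libraries, the strongest peak was at the 5′ end in every library. For 31 of the 34, the median summit over libraries lay within 250 bp of the start. Summit positions over all genes with a peak were not computed, so these counts cannot be read as particular to proteasome genes. The median distance was 105 bp, and the summit was upstream of the start at 15 genes and downstream at 19. Psmd1, a scaffold subunit of the regulatory particle, had its median summit 3 bp from the start, and Psmb9 had it farthest upstream of the 33 genes other than Psma3. Counted at the tabulated start alone, 36 of the 43 genes had a peak in all 6 libraries (83.7%), against 8047 of 17492 genes (46.0%).

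**Figure D2:**
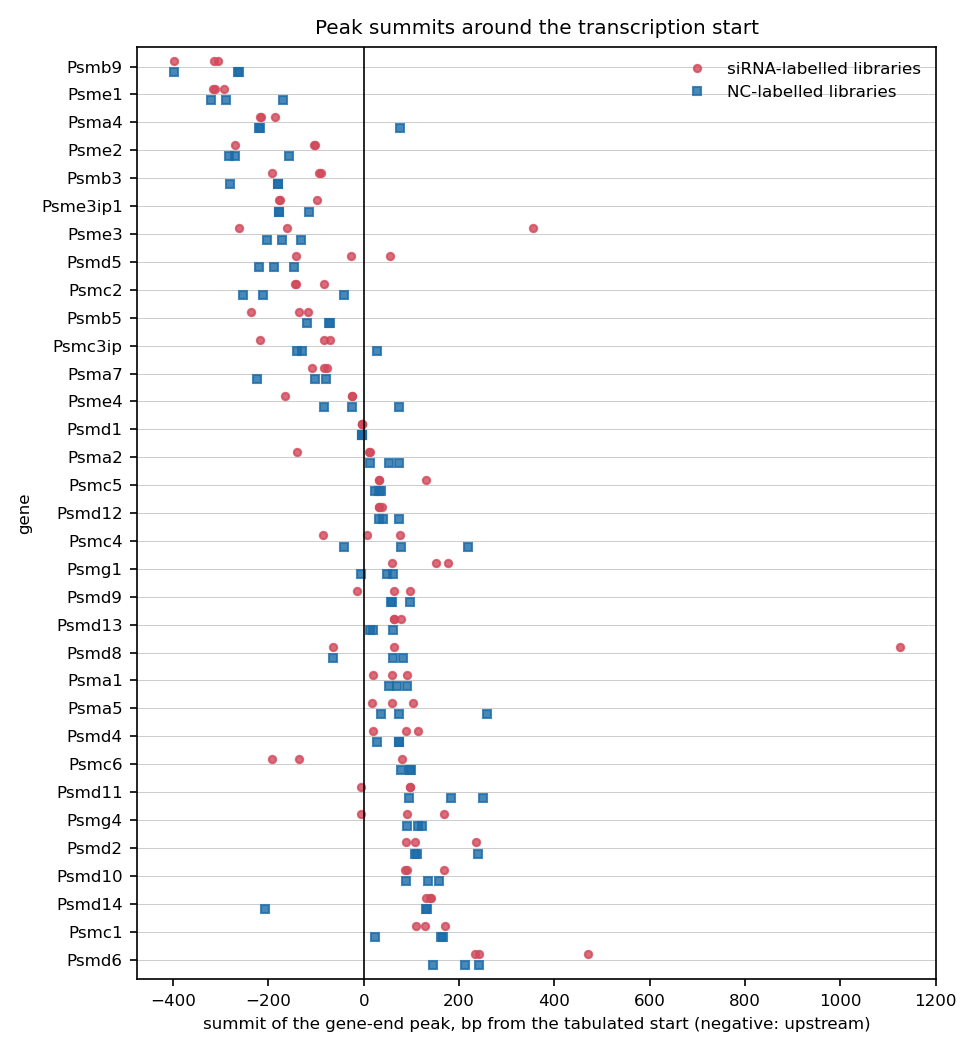
Distance in bp from the tabulated start to the summit of each gene's strongest gene-end peak (negative is upstream) for 33 genes down the page, with 1 circle per siRNA-labelled and 1 square per NC-labelled library; Psma3, at a median of -6105 bp, is left out. Most summits lie within 250 bp of the start, and the farthest point is 1 siRNA-labelled library at Psmd8.

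Psma3, an alpha subunit, was the exception. Its gene-end peak lay before the first base of the gene, with folds of 7.29, 6.81 and 5.17 in siRNA-labelled libraries 1 to 3, against 7.00, 8.07 and 6.68 in NC-labelled libraries 1 to 3. That peak overlapped a lysine tRNA gene, n-TKctt17, in 5 of 6 libraries, so it cannot be assigned to Psma3. The tabulated start of Psma3 (chr12, position 70974623) lies inside the gene span and outside both windows. There the folds were 20.0, 20.1 and 20.5 in siRNA-labelled libraries 1 to 3, against 20.4, 22.0 and 20.2 in NC-labelled libraries 1 to 3. The −log10 q of that peak was 226, 233 and 262 in the siRNA-labelled libraries, against 298, 346 and 271 in the NC-labelled libraries. It stood above the 99.9th percentile of every list, the highest of the tabulated starts of these genes. Its summit height, the fragments at the summit divided by the library's background coverage, was 522, 529 and 532 in siRNA-labelled libraries, against 487, 544 and 480 in NC-labelled libraries. The groups overlapped (log2 ratio 0.07, SE 0.08, limma adjusted p = 0.752).

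Psma6 and Psmf1, which had no gene-end peak, also had peaks in all 6 libraries at tabulated starts inside their gene spans. At the Psma6 start (chr12, position 55398825) the folds were 5.95, 7.08 and 7.26 in siRNA-labelled libraries 1 to 3, against 4.97, 6.91 and 6.47 in NC-labelled libraries 1 to 3. The log2 ratio of summit height was 0.42 (SE 0.19, limma adjusted p = 0.330), and the groups overlapped. Psmf1 encodes a protein that inhibits the core particle in the test tube. At its start (chr2, position 151741310) the peak was weak, with folds of 4.52, 5.35 and 5.89 in siRNA-labelled libraries, against 4.90, 5.14 and 4.84 in NC-labelled libraries. Its summit heights were 14.7, 18.7 and 16.7 in siRNA-labelled libraries, against 13.4, 13.4 and 11.3 in NC-labelled libraries, from 7 to 9 fragments each. The groups did not overlap, with a log2 ratio of 0.39 (SE 0.28, limma adjusted p = 0.570). No peak was found at Psma8, an alpha subunit of the testis, or at Psme2b, a gene named after Psme2.

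Among the alpha genes with a gene-end peak, Psma4 ranked highest, at a mean percentile of 90.2, and Psma1 lowest, at 72.0. Psma4 had folds of 14.1, 13.3 and 12.1 and −log10 q of 39.3, 35.1 and 32.9 in siRNA-labelled libraries 1 to 3. Its folds were 11.3, 12.0 and 11.6 and its −log10 q 31.4, 38.0 and 38.3 in NC-labelled libraries 1 to 3. The folds of the groups did not overlap, by a narrow gap of 12.1 against 12.0, and how often this occurs over all genes was not counted. The −log10 q of the groups overlapped, and siRNA-labelled library 1 held the highest value. Psma1 had folds of 9.41, 9.34 and 10.3, with −log10 q of 15.3, 15.2 and 20.0, in siRNA-labelled libraries. In NC-labelled libraries its folds were 7.97, 8.63 and 10.9, with −log10 q of 12.7, 14.7 and 22.7. The highest and lowest of these 6 folds were both in NC-labelled libraries.

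The beta genes varied most in presence, and the 3 immunoproteasome genes did not share a pattern. Psmb9, whose start faces that of the peptide transporter gene Tap1 at 226 bp, had folds of 12.9, 10.3 and 11.7 in siRNA-labelled libraries 1 to 3, against 13.5, 13.8 and 12.7 in NC-labelled libraries 1 to 3. Its −log10 q was 65.0, 44.7 and 66.5 in siRNA-labelled libraries, against 93.1, 97.4 and 85.0 in NC-labelled libraries, for a mean percentile of 97.4. Both genes share this peak, and it cannot be assigned to 1 of them. Psmb10, the immunoproteasome counterpart of Psmb7, had no gene-end peak in siRNA-labelled library 1, folds of 3.64 and 5.91 in siRNA-labelled libraries 2 and 3, and folds of 3.76, 5.59 and 4.14 in NC-labelled libraries. The folds of siRNA-labelled library 2 and NC-labelled library 1 came from peaks with summits 100 and 226 bp from the start. Those of siRNA-labelled library 3 and NC-labelled libraries 2 and 3 came from summits 1293, 1125 and 1084 bp inside the gene. The summit nearest the start lay at 1272, 100 and 1293 bp in siRNA-labelled libraries, against 226, 226 and 105 bp in NC-labelled libraries. A merged region inside the gene held a peak in all 6 libraries. That peak lay outside the window in siRNA-labelled libraries 1 and 2 and NC-labelled library 1. In siRNA-labelled library 1 it stopped 1020 bp from the gene end. The log2 ratio of summit height there was 0.15 (SE 0.23, limma adjusted p = 0.830), with overlapping groups. Psmb8 had weak peaks in 4 libraries, with folds of 2.81 and 3.61 in siRNA-labelled libraries 2 and 3, against 3.38 and 3.52 in NC-labelled libraries 1 and 3. The strongest of these peaks lay beyond the 3′ end of Psmb8 in 3 libraries and before its start in NC-labelled library 1. Stronger peaks lay just outside the window. In siRNA-labelled library 1 the nearest was 1277 bp from a gene end, with a fold of 9.67 and a −log10 q of 42.7. In NC-labelled library 2 it was 1262 bp away, with a fold of 9.03 and a −log10 q of 43.1. Tap1 and Psmb9 lie next to Psmb8 on the chromosome.

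The standard cutting subunits also differed from each other. Psmb5 had folds of 16.0, 13.9 and 17.0 in siRNA-labelled libraries 1 to 3, against 16.3, 15.0 and 13.9 in NC-labelled libraries 1 to 3. The −log10 q was 67.3, 51.0 and 71.5 in siRNA-labelled libraries, against 84.8, 68.9 and 65.0 in NC-labelled libraries, for a mean percentile of 97.1. Psmb5 ranked close to Psmb9, while the other standard cutting subunits lay far lower. Psmb7 was the lowest beta gene with a peak in all 6 libraries, with folds of 5.94, 7.57 and 8.86 in siRNA-labelled libraries, against 5.68, 4.51 and 6.75 in NC-labelled libraries. In −log10 q it had 7.68, 12.3 and 17.0 in siRNA-labelled libraries, against 8.47, 5.20 and 11.5 in NC-labelled libraries. Psmb6 had folds of 7.33 and 5.82 in siRNA-labelled libraries 1 and 2 and no peak in library 3, against 5.99, 4.26 and 4.92 in NC-labelled libraries. Its 5 summits lay between 15 and 66 bp upstream of the start.

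Of the remaining beta genes, Psmb1, Psmb2 and Psmb3, subunits without a cutting site, had a peak in all 6 libraries at mean percentiles of 86.5, 68.5 and 79.2. Psmb4, also a subunit of every core particle, had 1 weak peak, with a fold of 3.90 and a −log10 q of 2.76 in siRNA-labelled library 2, and none in the NC-labelled libraries. Psmb11, which belongs to the proteasome of the thymus cortex, had 1 weak peak, in NC-labelled library 2, with a fold of 3.72 and a −log10 q of 2.43. Each of these 2 signals rests on a single library near the lower end of its list.

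The ATPases ran from Psmc3, at a mean percentile of 90.8, to Psmc4, at 45.3. Psmc3 had folds of 10.5, 10.2 and 10.6 and −log10 q of 29.6, 30.1 and 35.3 in siRNA-labelled libraries 1 to 3. In NC-labelled libraries 1 to 3 its folds were 11.5, 11.9 and 10.7 and its −log10 q 44.7, 48.4 and 37.6. The lowest NC-labelled −log10 q was above the highest siRNA-labelled one, but −log10 q grows with the coverage of a library, which was lower in the siRNA-labelled libraries. Psmc4 had folds of 6.03, 8.04 and 6.15 in siRNA-labelled libraries, against 6.34, 5.80 and 6.96 in NC-labelled libraries. Its −log10 q was 6.53, 10.3 and 7.08 in siRNA-labelled libraries, against 7.43, 6.64 and 8.69 in NC-labelled libraries. Psmc5 and Psmc6 stood at mean percentiles of 89.5 and 82.3, Psmc1 at 76.6 and Psmc2 at 47.3, although their products form 1 ring in equal numbers.

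The 14 non-ATPase genes had the widest range of mean percentiles of any class. Psmd3, a subunit of the lid that holds the ubiquitin-removing enzyme, ranked highest, with folds of 13.4, 15.3 and 18.2 in siRNA-labelled libraries 1 to 3, against 13.8, 14.7 and 12.6 in NC-labelled libraries 1 to 3. The −log10 q was 42.9, 63.2 and 85.2 in siRNA-labelled libraries, against 65.5, 68.9 and 52.3 in NC-labelled libraries. By −log10 q, the siRNA-labelled libraries held both the weakest and the strongest Psmd3 peak. Psmd6, another lid subunit, ranked lowest, with folds of 5.58, 4.59 and 5.95 in siRNA-labelled libraries, against 6.59, 5.84 and 6.03 in NC-labelled libraries. In −log10 q it had 5.37, 3.59 and 6.21 in siRNA-labelled libraries, against 7.83, 6.40 and 6.65 in NC-labelled libraries.

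The scaffold subunit Psmd1 stood at a mean percentile of 95.2 and the lid subunit Psmd12 at 93.6. Psmd13 and Psmd7, both of the lid, stood at 86.7 and 86.6, and Psmd11 and Psmd8, also of the lid, at 77.9 and 43.8. Psmd14, the enzyme that removes ubiquitin, stood at 75.5, the scaffold Psmd2 at 75.7 and the ubiquitin receptor Psmd4 at 72.3. Psmd10, Psmd5 and Psmd9, which chaperone the assembly of the regulatory particle and leave it, stood at 81.5, 73.2 and 47.6. Neither the lid nor the assembly factors kept to 1 end of the range.

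Among the activators, Psme2 had the highest mean percentile of all 41 genes, at 99.4. Its folds were 13.2, 13.3 and 13.8 in siRNA-labelled libraries 1 to 3, against 12.9, 13.9 and 13.0 in NC-labelled libraries 1 to 3. Its −log10 q was 98.1, 108 and 128 in siRNA-labelled libraries, against 140, 150 and 127 in NC-labelled libraries. The folds of the groups overlapped, and the peak was 995 to 1229 bp wide. The start of Psme2 faces that of Rnf31, a ubiquitin ligase gene of the linear ubiquitin complex, at 641 bp. Psme1, the partner of Psme2 in 1 ring, lies a few kb away and stood at a mean percentile of 79.8. Psme3, the activator of the nucleus, was the lowest, at 67.1, with folds of 10.0, 7.01 and 6.94 in siRNA-labelled libraries, against 7.81, 8.80 and 6.94 in NC-labelled libraries. The −log10 q was 18.8, 9.78 and 10.9 in siRNA-labelled libraries, against 15.7, 20.1 and 11.8 in NC-labelled libraries.

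Psmg1 to Psmg4 encode chaperones that build the alpha ring. Psmg2 ranked highest, at 90.2, with folds of 12.7, 11.8 and 9.41 in siRNA-labelled libraries 1 to 3, against 12.7, 12.1 and 12.4 in NC-labelled libraries 1 to 3. In −log10 q it had 41.2, 30.9 and 24.4 in siRNA-labelled libraries, against 42.9, 39.6 and 41.5 in NC-labelled libraries. By both measures siRNA-labelled library 3 was the lowest. Psmg1, its partner in 1 dimer, ranked lowest of those with a peak in all 6 libraries, at 62.7, with folds of 8.81, 9.58 and 10.5 in siRNA-labelled libraries, against 7.35, 8.32 and 7.25 in NC-labelled libraries. Its −log10 q was 11.8, 14.2 and 17.2 in siRNA-labelled libraries, against 10.0, 12.4 and 9.49 in NC-labelled libraries. Every siRNA-labelled fold was above every NC-labelled fold, while the −log10 q overlapped. Psmg3 had no peak in siRNA-labelled library 1 and folds of 5.11 and 5.52 in siRNA-labelled libraries 2 and 3, against 4.99, 4.77 and 5.13 in NC-labelled libraries. Of the 2 genes that are no subunits, Psme3ip1 stood at 95.3 and Psmc3ip at 47.5. Psme3ip1 had folds of 13.6, 13.6 and 13.0 in siRNA-labelled libraries, against 10.4, 11.4 and 11.8 in NC-labelled libraries. In −log10 q, Psme3ip1 had 56.7, 60.4 and 60.1 in siRNA-labelled libraries, against 42.3, 55.4 and 54.6 in NC-labelled libraries. Neither measure overlapped between the groups at Psme3ip1. The share of all genes whose groups separate by fold or by −log10 q was not counted, so at Psmg1 and Psme3ip1 this is a description alone. Psmc3ip had folds of 5.44, 7.74 and 5.84 in siRNA-labelled libraries, against 4.16, 8.70 and 6.23 in NC-labelled libraries. Its peak had −log10 q of 6.25, 11.3 and 7.60 in siRNA-labelled libraries, against 3.86, 16.8 and 9.0 in NC-labelled libraries, and NC-labelled libraries held both extremes.

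The comparison the design implies is whether signal at these genes differed between siRNA-labelled and NC-labelled libraries. The lists hold no measure of Arid3a protein or transcript, so the knockdown itself could not be checked. Summit height, defined above, was compared with limma over the 29602 regions with a peak in all 6 libraries. Background coverage was 0.475, 0.482 and 0.538 fragments per base in siRNA-labelled libraries 1 to 3, against 0.670, 0.673 and 0.621 in NC-labelled libraries 1 to 3, so coverage cannot be told apart from group. The median log2 ratio over all regions was 0.10, and the ratios below are to be read against that shift.

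No region at a proteasome gene passed an adjusted p of 0.05 (limma). Of 42 regions tested, 0 were called higher in the siRNA-labelled libraries, against 0.240% of all regions, and 0 were called lower, against 0.0270%. At an unadjusted p under 0.05 there were 9 of 42, against 3954 of all 29602 regions. The median log2 ratio of the 42 was 0.16, and 32 of them were above 0, a share of 76.2%, against 66.4% of all regions. With scaling by the median log2 ratio, the median of the 42 was 0.06 and 25 were above 0, so the direction of 7 of them rests on the scaling. The SE of the log2 ratio ran between 0.10 and 0.27, with a median of 0.18. Without siRNA-labelled library 1, limma called Psmd3, Psmd9 and Psme3ip1 higher and Psmd11 lower (adjusted p = 0.0340, 0.0470, 0.0360 and 0.0434), which makes 3 and 1 of 42. Over all regions that setting called 881 higher, or 2.98%, and 73 lower, or 0.247%.

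**Figure D3:**
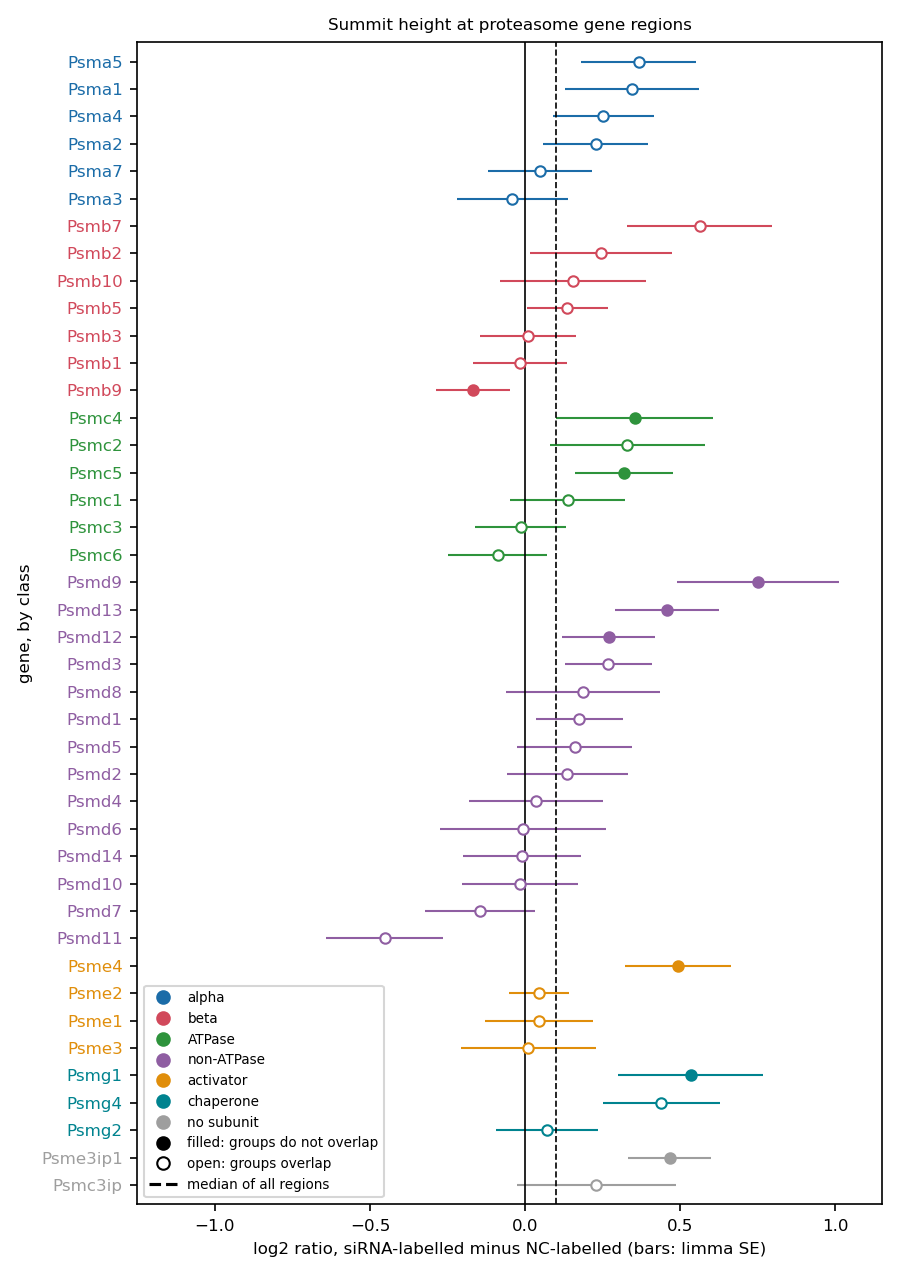
Log2 ratio of summit height, siRNA-labelled minus NC-labelled (points, with bars for the limma SE), at the 42 regions by class down the page; filled points mark regions whose groups do not overlap, and the dashed line is the median of all regions at 0.10. Psmd9 is highest at 0.75 and Psmd11 lowest at -0.45, and no region passed an adjusted p of 0.05; the sign of 7 regions turns with median scaling.

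The largest ratios were at Psmd9, Psmb7, Psmg1 and Psme4. Psmd9 had summit heights of 23.2, 43.6 and 26.0 in siRNA-labelled libraries 1 to 3, against 16.4, 20.8 and 16.1 in NC-labelled libraries 1 to 3. The groups did not overlap, siRNA-labelled library 2 stood well above the rest, and the log2 ratio was 0.75 (SE 0.26, limma adjusted p = 0.183). These heights rest on 11, 21 and 14 summit fragments in siRNA-labelled libraries, against 11, 14 and 10 in NC-labelled libraries, so counting error is large. The ratio was 0.48 without siRNA-labelled library 2 and 0.33 with the deposited fold. Psmb7 had heights of 31.6, 41.5 and 46.5 in siRNA-labelled libraries, against 26.9, 20.8 and 33.8 in NC-labelled libraries. The groups overlapped, with a log2 ratio of 0.56 (SE 0.23, limma adjusted p = 0.277).

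Psmg1 had heights of 29.5, 35.3 and 37.2 in siRNA-labelled libraries, against 22.4, 25.3 and 22.5 in NC-labelled libraries. All siRNA-labelled values were above all NC-labelled ones, with a log2 ratio of 0.53 (SE 0.23, limma adjusted p = 0.304). Psme4, an activator known for the degradation of histones, had heights of 77.9, 72.6 and 87.4 in siRNA-labelled libraries, against 50.7, 63.9 and 54.8 in NC-labelled libraries. Those groups did not overlap either, with a log2 ratio of 0.49 (SE 0.17, limma adjusted p = 0.181). Psme3ip1 had the smallest adjusted p of the 42. Its heights were 152, 160 and 147 in siRNA-labelled libraries, against 94.0, 117 and 122 in NC-labelled libraries, with a log2 ratio of 0.47 (SE 0.13, limma adjusted p = 0.106). The start of Psme3ip1 faces that of Rspry1 at 215 bp, so this height cannot be assigned to 1 of the 2 genes.

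In 8 of 42 regions all 3 siRNA-labelled values lay above the 3 NC-labelled ones, against 13.9% of all regions. Besides Psmd9, Psmg1, Psme4 and Psme3ip1, these were Psmc4, Psmc5, Psmd12 and Psmd13. Psmd13 had heights of 77.9, 89.2 and 79.9 in siRNA-labelled libraries, against 52.2, 65.4 and 62.8 in NC-labelled libraries (log2 ratio 0.46, SE 0.17, limma adjusted p = 0.205). Psmc5 had 86.3, 106 and 85.5 in siRNA-labelled libraries, against 68.7, 74.3 and 78.9 in NC-labelled libraries (log2 ratio 0.32, SE 0.16, limma adjusted p = 0.370). Both of these starts face a neighbour, Sirt3 at 85 bp from Psmd13 and Ftsj3 at 101 bp from Psmc5. With the deposited fold in place of summit height, the ratio was 0.14 at Psmd13, 0.16 at Psmc5, 0.11 at Psmd12 and 0.07 at Psmc4. By summit height Psmd12 and Psmc4 had log2 ratios of 0.27 and 0.35, and at Psmd12 the gap between the groups was narrow, with a lowest siRNA-labelled value of 97.5 and a highest NC-labelled value of 96.6. The smallest p that an exact permutation test of 3 against 3 libraries can give is 0.1, so such a test of 1 region cannot reach 0.05, while limma draws its estimate of the spread from all regions.

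In 1 of 42 regions all 3 siRNA-labelled values lay below the 3 NC-labelled ones, against 3.92% of all regions. This was Psmb9, with heights of 183, 141 and 177 in siRNA-labelled libraries, against 184, 189 and 187 in NC-labelled libraries. The gap between the groups was under 1 unit, siRNA-labelled library 2 was the low one, and the log2 ratio was -0.17 (SE 0.12, limma adjusted p = 0.575). Without that library it was -0.05, and with median scaling -0.27. The lowest ratio was at Psmd11, a lid subunit, with heights of 69.5, 49.8 and 46.5 in siRNA-labelled libraries, against 89.6, 81.7 and 56.4 in NC-labelled libraries. Those groups overlapped, with a log2 ratio of -0.45 (SE 0.19, limma adjusted p = 0.278). The strongest gene-end peak, Psme2, had heights of 278, 301 and 314 in siRNA-labelled libraries, against 290, 294 and 280 in NC-labelled libraries. Its log2 ratio was 0.05 (SE 0.10, limma adjusted p = 0.884), which is -0.05 with median scaling.

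**Figure D4:**
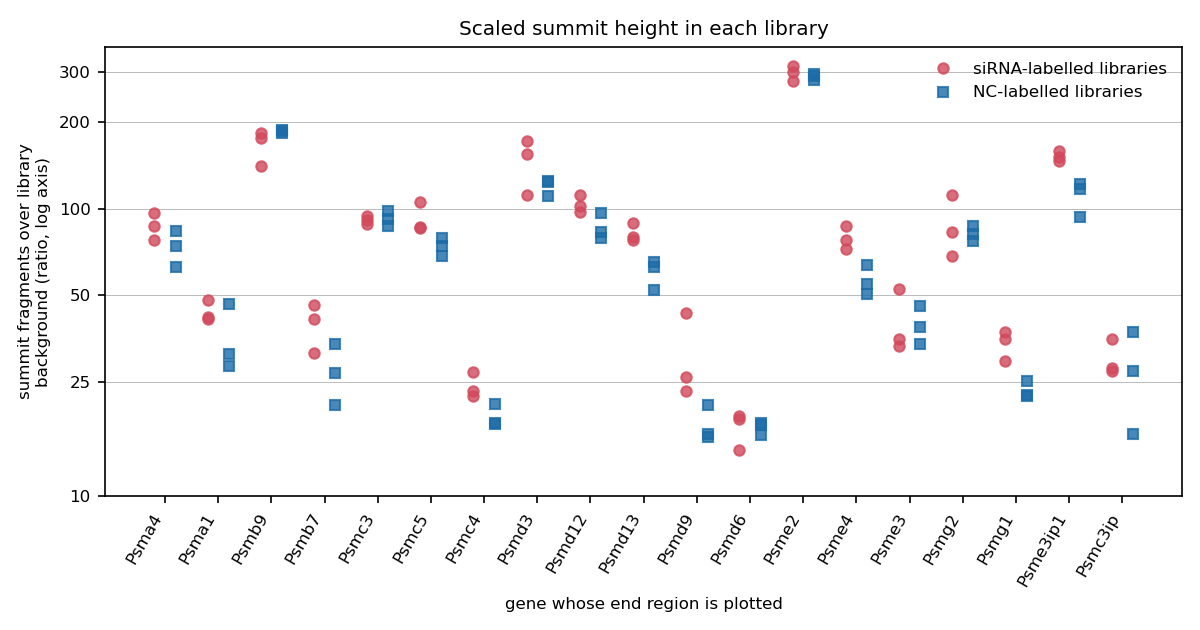
Summit height, the fragments at the summit divided by library background (log axis), at the gene-end regions of 19 genes across the page, with circles for the 3 siRNA-labelled and squares for the 3 NC-labelled libraries. Psme2 lies between 278 and 314 in both groups, while Psmd9, Psmg1, Psme4 and Psme3ip1 show siRNA-labelled values above all NC-labelled ones; none of these regions passed an adjusted p of 0.05.

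By class, the median log2 ratio was 0.24 over the 6 alpha regions, 0.14 over the 7 beta regions, 0.23 over the 6 ATPase regions and 0.15 over the 14 non-ATPase regions. It was 0.05 over the 4 activator regions, 0.44 over the 3 chaperone regions and 0.35 over the 2 regions of genes that are no subunits. The ranges of all these classes overlapped each other, and differences between classes were not tested. The 4 activators split into Psme4 at 0.49 and the other 3 between 0.01 and 0.05.

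Several of the strongest peaks were at starts shared with a neighbour. Of the 43 genes with a tabulated start, 8 had another protein-coding gene starting on the opposite strand within 1000 bp upstream, or 18.6%, against 1483 of 17492 genes, or 8.48%. They were Psma2 with Mrpl32, Psma7 with Ss18l1, Psmb9 with Tap1, Psmc5 with Ftsj3, Psmd10 with Atg4a, Psmd13 with Sirt3, Psme2 with Rnf31 and Psme3ip1 with Rspry1. Their mean percentiles ran between 81.5 and 99.4, with a median of 89.0, against 34.2 to 97.1, with a median of 75.6, at the 26 others with a tabulated start and a peak in all 6 libraries. Only neighbours with a tabulated start were counted. Dnajc2, 11 bp from the 5′ end of Psmc2, and AY074887, 537 bp from that of Psma4, had none. Psmc2 and Psma4, at mean percentiles of 47.3 and 90.2, are thus among the 26 others, though their starts may be shared too. The comparison is a description with no test, and at shared starts the peak cannot be assigned to 1 of the 2 genes.

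In the promoter windows, 7 motifs were searched as exact letters on both strands, and matches of different motifs overlapped in no proteasome promoter. Shares are of genes with a match in any of their windows, since some genes have more than 1. The ETS motif CCGGAAG was found at 16 of the 43 genes (37.2%), against 12.9% of the 17492 protein-coding genes with a window. The other shares lay closer together. TGACNNNGC, the core of the antioxidant response element through which Nfe2l1 raises proteasome genes when proteasomes fail, was in 14.0%, against 14.8% of all genes with a window. ATTAAA, an AT-rich core searched for Arid3a, was in 14.0%, against 13.7%. CCAAT was in 37.2%, against 42.3%, and GCATGCGC, the motif of the respiratory factor Nrf1, in 6.98%, against 3.94%. The interferon-type motif GAAANNGAA was in 16.3%, against 9.43%, and the E-box CACGTG in 11.6%, against 8.91%. Averaged over the windows of a gene, the median GC content was 57.3%, against 56.3%, and the median number of CpG pairs 19, against 13. These are matches of letters, not sites, and a window with no match says nothing of the factor.

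**Figure D5:**
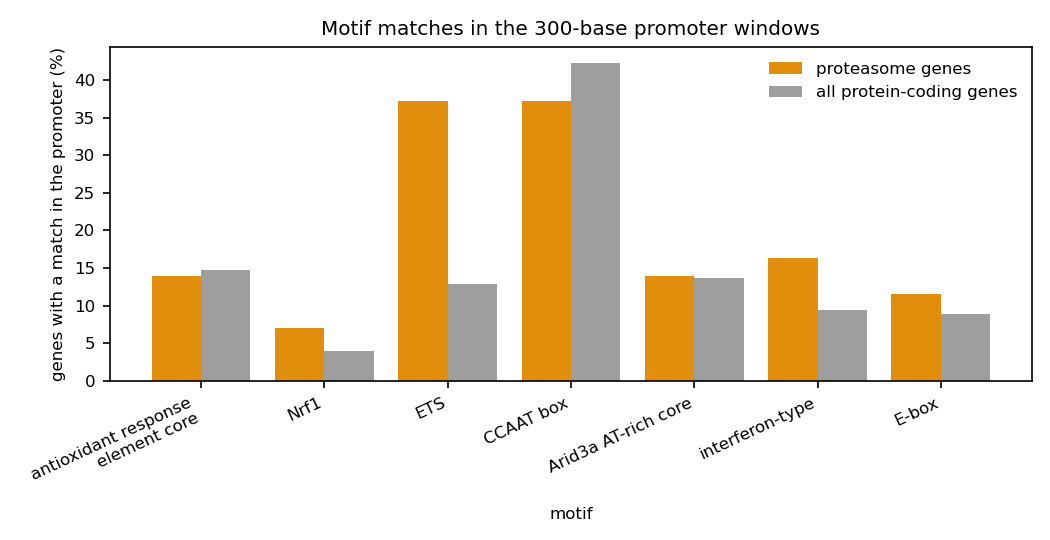
Share of genes (%) with at least 1 exact match to each of 7 motifs in any of their promoter windows, for 43 proteasome genes (left bar of each pair) and 17492 protein-coding genes (right bar). The ETS bars stand farthest apart, at 37.2% and 12.9%, and the bars of the antioxidant response element core and of the AT-rich core are nearly level.

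In the sequences printed above, the antioxidant core of Psmb5 starts at position -47 from the transcription start, that of Psmd9 at position -31 and that of Psmd12, in the opposite orientation, at position -247. Psmd12 also has an ETS match at position -17, and Psmd9 an interferon-type match and an E-box. Psma3 has 3 CCAAT matches and Psmb9 has 1, in the opposite orientation, at position -8. Psmb4, with a peak in 1 library, has an interferon-type match across its start. The windows of Psme2, with the strongest gene-end peak, and Psmb8, with weak gene-end peaks in 4 libraries, have no match to any of the 7 motifs.

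Genes that act on the proteasome were followed in the same way, from a list of 30, of which 29 matched the annotation. A gene-end peak in all 6 libraries was present at 27 of the 29, against 44.0% of all genes, and Ecpas and Tap2 had none. Of 30 regions tested at these genes, limma called 0 higher and 0 lower in the siRNA-labelled libraries, against 0.240% and 0.0270% of all regions, and their median log2 ratio was 0.11, against 0.10 over all regions. Nfe2l1, the factor that raises proteasome genes, had a log2 ratio of -0.34 (SE 0.10, limma adjusted p = 0.135). Its relative Nfe2l2 had 0.22 (SE 0.09, limma adjusted p = 0.303), and Usp14, a deubiquitinase bound to the regulatory particle, 0.35 (SE 0.14, limma adjusted p = 0.258). Tap1 had -0.17, which is the value of the region it shares with Psmb9.

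The lists held between 43834 and 51682 peaks, and the median summit held 16 fragments in each siRNA-labelled library, against 19, 20 and 18 in NC-labelled libraries 1 to 3. Counting error is therefore large at a typical peak, and the total reads were not used here. Within groups, siRNA-labelled libraries 2 and 3 differed at the 4155 highest regions by less than random (Poisson) counts would (mean chi-square per region 0.767, against about 1). So did every NC-labelled pair (0.771 to 0.852). A summit is the highest point of its region, so its noise need not equal that of a Poisson count. The pairs with siRNA-labelled library 1 were at 1.16 and 1.23. Between groups the pairs ran from 1.11 to 1.67. There siRNA-labelled library 1 was at 1.23, 1.40 and 1.11 with NC-labelled libraries 1 to 3. It thus stood no nearer to its own group than to NC-labelled library 3. Because of the likeness of libraries within groups, no group mean with an SD is printed. The test was also repeated with siRNA-labelled libraries 2 and 3 averaged as 1 sample, which called 0 of the 42 regions. The NC-labelled libraries stayed 3 samples in that repeat, so it does not cover the likeness of the NC-labelled pairs. Of 8 smooth muscle marker genes, Acta2, Tagln, Smtn and Lmod1 had a gene-end peak in all 6 libraries. Cnn1 and Myocd had one in 4 libraries each, and Myh11 and Des had none. Endothelial markers had such a peak in all libraries at 0 of 6 genes and macrophage markers at 1 of 6. Fibroblast markers had one at 1 of 5 and T cell markers at 0 of 4. Over all protein-coding genes the share was 44.0%, and these short lists were not tested against it. Peaks at markers are not expression, and they name no cell type.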

How the data were processed

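Each library had 1 peak list. Bowtie2, Picard and MACS2 with the mm10 build were used, per the submitters' processing notes; the sources used here do not give versions, options or total reads. For every peak the authors deposited a score, a fold enrichment (a ratio over local background) and the p-value and q-value as −log10. These deposited values were used to describe and rank peaks within 1 list.

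A MACS2 fold with its pseudocount of 1 and its Poisson p-value together fix the summit fragments and the background, which were solved for every peak (relative tolerance 0.002). Peaks of all 6 libraries were merged at an overlap of 1 bp. Summit fragments over library background were tested on the log2 scale with limma 3.58.1 (R 4.3.3; trend, Benjamini-Hochberg over all 29602 regions with a peak in all 6 libraries, threshold 0.05). Solver and test were tested on simulated data. Tables were made with Python 3.11.15 and SciPy 1.17.1. Genes, starts and promoters came from RefSeq (GRCm38.p6); promoter windows were 250 bases before to 50 after a start.

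Named genes were the highest and lowest of each class, all with a peak in 1 to 5 libraries, and the 4 largest ratios; those whose groups do not overlap, Psmb5, Psmd11 and the genes whose tabulated start lies inside their span were added after their values were seen. Members and lists were chosen with earlier results of these data known. The alternatives were other windows, thresholds, scalings, the replicate block and leaving out each library.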

Additional observations from a re-analysis of the deposited data

How the results depend on the processing

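The count of proteasome genes with a gene-end peak in all 6 libraries was 41 of 51, against 9638 of all 21887 genes. It was 37 with peaks of −log10 q of at least 5, against 8531 of all genes. With windows of 500 and 2000 bp it was 41 and 44, against 8894 and 10526. With the summit required in the window it was 41, against 9127. At tabulated starts alone it was 36 of 43 genes, against 8047 of 17492. Leaving out 1 library gave 41 to 43, and the count of all genes was 9896 without siRNA-labelled library 1. The counts of proteasome genes with a peak in every library of 1 group and in none of the other stayed at 0 in each of these settings. Regions called by limma, 0 higher and 0 lower, were 0 to 3 higher and 0 to 1 lower when 1 library was left out; all of the calls came without siRNA-labelled library 1. Fitting the replicate block called 1 higher (Psme3ip1, limma adjusted p = 0.0402) and 0 lower. Same-numbered libraries deviated together with correlations of 0.04, 0.03 and -0.02, so the numbers were not taken to pair the libraries. Median scaling, the deposited fold, the stricter peaks, regions with a peak in at least 4 libraries and siRNA-labelled libraries 2 and 3 as 1 sample each called 0. Over all regions, the counts of 71 higher and 8 lower became 27 and 36 with median scaling, 0 and 0 with the deposited fold (2184 at an unadjusted p under 0.05), and 364 and 31 with the replicate block. They were 881 and 73 without siRNA-labelled library 1, and 5 to 20 and 0 to 2 without any 1 of the other libraries. With siRNA-labelled libraries 2 and 3 as 1 sample they were 21 and 5, with the stricter peaks 97 and 8 of 23093 regions, and with a peak in at least 4 libraries 109 and 12 of 40909.

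With median scaling, 7 log2 ratios turned sign: Psma7 was -0.0516, Psmb3 -0.0890, Psmd4 -0.0641, Psme1 -0.0545, Psme2 -0.0529, Psme3 -0.0889 and Psmg2 -0.0296; Psmg2 was -0.15 with the deposited fold, and Psmd6 0.0277 with siRNA-labelled libraries 2 and 3 as 1 sample. Leaving out 1 library gave ranges of -0.0587 to 0.0280 at Psmc3, -0.0752 to 0.117 at Psmd6, -0.197 to 0.136 at Psme3, -0.118 to 0.231 at Psmg2 and -0.0897 to 0.499 at Psmc3ip. The cause of these turns was not tested. Summits of around 10 fragments limit the weak peaks.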

Other observations

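Inside the proteasome genes, farther than 1000 bp from both ends, 26 merged regions lay in 15 of the 51 genes, and 9 of them, in 6 genes, had a peak in all 6 libraries. Psma6 held 4 of these 9, and Psma3, Psmb5, Psmb7, Psmc2 and Psmf1 held 1 each. The annotation also lists 6 proteasome pseudogenes by the same symbol pattern: Psma5-ps, Psmb5-ps, Psmb6-ps, Psmb6-ps2, Psmb7-ps1 and Psmb7-ps2. None of the 6 had a gene-end peak in any of the 6 libraries. Psmb5 had one of the strongest peaks of its class, while Psmb5-ps had none. The share of all pseudogenes with such a peak was not computed, nor the share of all genes with inner regions. These counts therefore cannot be read as particular to the proteasome genes.

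Peak width varied among genes of 1 class. The peaks of Psmd11, Psme1, Psme2 and Psme3 had median widths of 1086, 1114, 1153 and 1099 bp over the 6 libraries, against 396 bp at Psmc2, 395 bp at Psmd9 and 337 bp at Psmc3ip. Psmc5, another ATPase gene beside Psmc2, stood at 1054 bp.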
